A study of Mus musculus with 4 samples.

Results

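Dlk1, Meg3, Rian and Mirg are genes of the imprinted Dlk1-Dio3 domain on the distal part of mouse chromosome 12. Their rows were taken by gene symbol. Of the 4 symbols, 3 had a row among the 27998 genes that were counted (Dlk1, Meg3 and Mirg), and Rian is not analysed here. Single-cell transcriptomes came from inner ear organoids, 3-dimensional cultures of mouse embryonic stem cells that give rise to otic sensory epithelium as well as mesenchyme, muscle, skin and nervous tissue. The wild-type (WT) organoids were grown from the R1/E line, of 129X1x129S1 origin, and the knockout (KO) organoids from R1/E-Tmprss3KO-GFPKI, the same line with Tmprss3 disrupted and GFP inserted. Tmprss3 encodes a membrane serine protease needed for hearing. Each line was sampled at day 25 and at day 35, with 1 library for each of the 4 groups. The KO is 1 line, whose number of clones is not given in the labels, so a difference between KO and WT cannot be told apart from a difference between the lines or the cultures.

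Imprinted genes are expressed mainly from the copy inherited from 1 parent. In this domain the protein-coding genes Dlk1, Rtl1 and Dio3 are known to be expressed from the paternal copy, and the noncoding genes Meg3, Rian and Mirg from the maternal copy, under a shared control region between Dlk1 and Meg3 that carries methylation on the paternal copy. Dlk1 encodes a transmembrane protein with EGF-like repeats, related to Notch ligands, which marks embryonic mesenchyme and muscle precursors and is known for holding back the maturation of fat cells (its older name is preadipocyte factor). Meg3 is a long noncoding RNA kept largely in the nucleus. Mirg is the noncoding host transcript of a cluster of microRNAs, small RNAs that bind messenger RNAs through their seed. The counts do not tell from which parental copy a transcript came.

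In GRCm38, Dlk1 (ENSMUSG00000040856) lies on the plus strand of chromosome 12 from 109452823 to 109463336 and is protein-coding. Meg3 (ENSMUSG00000021268) follows on the same strand from 109541001 to 109571726, and Mirg (ENSMUSG00000097391) from 109729764 to 109749460. Both are annotated as lincRNA. The 8 counted genes from Dlk1 to Dio3 also include Gm26906, which runs antisense to the end of Meg3, Rtl1 on the minus strand, Gm26945, B830012L14Rik, a lincRNA at 109695586 to 109702587 upstream of Mirg, and Dio3. Whether the counting used strand is not given in the sources used here, so UMIs of Meg3 and of Gm26906 may not be separable there. Gm26906 itself held 84, 169, 13 and 10 UMIs (unique molecular identifiers, each a counted RNA molecule) in the WT and KO libraries of day 25 and the WT and KO libraries of day 35.

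Because Dlk1 and Meg3 were lower together at day 35 in both lines, their promoters are shown, each a window of 300 bases across the gene's start in RefSeq (GRCm38.p6, plus strand). Capitals in the Meg3 sequence mark every match, on either strand, to TATAAA (the TATA box), TGCCGC and TGACGTCA (the cyclic AMP response element). CAGCTG, an E box of muscle regulators, was searched too and had no match in either.
Dlk1, chr12:109452573-109452872: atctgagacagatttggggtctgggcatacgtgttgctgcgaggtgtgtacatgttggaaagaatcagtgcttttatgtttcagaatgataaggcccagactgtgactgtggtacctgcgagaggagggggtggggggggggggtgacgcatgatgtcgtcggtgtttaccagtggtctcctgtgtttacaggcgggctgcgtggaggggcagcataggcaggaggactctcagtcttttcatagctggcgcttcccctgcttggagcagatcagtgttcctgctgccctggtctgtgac
Meg3, chr12:109540746-109541045: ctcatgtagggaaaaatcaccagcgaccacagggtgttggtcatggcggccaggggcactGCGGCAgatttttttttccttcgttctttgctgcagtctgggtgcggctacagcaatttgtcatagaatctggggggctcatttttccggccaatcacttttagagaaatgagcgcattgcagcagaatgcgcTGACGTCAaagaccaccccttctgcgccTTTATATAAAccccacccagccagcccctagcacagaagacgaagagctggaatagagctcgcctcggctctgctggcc

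The Meg3 window held TATAAA 2 times, on opposite strands and overlapping each other, TGCCGC 1 time and TGACGTCA 1 time. The Dlk1 window held none of the 4 motifs. RefSeq lists a second Meg3 start, whose window at chr12:109545148-109545447 held 1 CG and none of the motifs. Among 32851 promoters of the same length, 13.62% held TATAAA, 11.61% TGCCGC, 1.79% TGACGTCA and 16.3% CAGCTG. CG dinucleotides numbered 13 in the printed Meg3 window and 9 in the Dlk1 window, against a median of 7 over all promoters. A match is a run of letters and was not tested as a binding site.

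The noncoding members are also the hosts of microRNAs, which were not measured here. RefSeq places 114 mature microRNAs of 61 hairpins between Dlk1 and Dio3, of which 3 lie within Meg3 and 26, from 14 hairpins, within Mirg. The following sequences show what Meg3 and Mirg carry, with the seed (bases 2 to 8) in capitals. They are both arms of miR-770 from Meg3, then the microRNAs of Mirg whose seed recurs in the domain.
miR-770-5p (Meg3): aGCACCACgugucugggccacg
miR-770-3p (Meg3): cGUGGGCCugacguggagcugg
miR-453 (Mirg): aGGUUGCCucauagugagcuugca
miR-496a-5p (Mirg): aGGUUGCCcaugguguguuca
miR-410-5p (Mirg): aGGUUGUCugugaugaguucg
miR-494-5p (outside the 3 members): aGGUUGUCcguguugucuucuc

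miR-453 and miR-496a-5p share the seed GGUUGCC, and miR-410-5p shares GGUUGUC with miR-494-5p. In all, 18 of the 114 mature microRNAs share their seed with another of the domain, 3 of them in Mirg.

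A barcode was kept where 500 or more genes were seen and mitochondrially encoded UMIs made up no more than 10%. This left 9768 and 11190 cells (WT, then KO) for day 25 and 8166 and 6729 for day 35, with medians of 6166.5, 6371, 3089 and 4420 UMIs. Of 35853 kept barcodes, between 241 and 353 per library had a sequence that also occurred in another library. Tmprss3, the targeted gene, gave 18, 7, 8 and 5 UMIs in the same order, too few to check the labels, and its remaining UMIs may come from outside the disrupted part. Levels are given as counts per 1000000 UMIs (CPM) of the summed cells, and every interval is an exact 95% one for counting error, with no other error in it. With 1 library per group there is no replicate check of any difference and no test. A gene is counted below as 2-fold higher or lower only as a description, where both libraries together held 50 UMIs of it or more.

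Dlk1, the ligand-like member, was abundant at day 25 and low at day 35. On day 25 its level was 2206 CPM (WT) and 1884 CPM (KO), and on day 35 it was 482 CPM (WT) and 226 CPM (KO). Both day 25 libraries were above both day 35 libraries, and the KO library was the lower of its day each time. Relative to day 25, Dlk1 at day 35 was lower by a log2 ratio of -2.20 (interval -2.22 to -2.17) in WT and -3.06 (-3.09 to -3.03) in KO, or 4.58-fold and 8.34-fold lower. With 5 cell gates (defined by markers, as given with the cell types) weighted equally, the ratios were smaller, -1.67 in WT and -1.86 in KO. In sums over a whole library, fewer cells of a type and less RNA per cell cannot be told apart.

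Meg3, the maternally expressed RNA, took the same course over time with little difference between the lines. On day 25 it stood at 3611 CPM (WT) and 4119 CPM (KO), and on day 35 at 851 CPM (WT) and 777 CPM (KO). The log2 ratio of day 35 over day 25 was -2.09 (-2.10 to -2.07) in WT and -2.41 (-2.42 to -2.39) in KO. With the same gates weighted equally they were -1.47 and -1.45. Both lines thus held less Meg3 on the later day, and the 2 lines lay close together on each day.

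Mirg, the microRNA host, was sparse. Its day 25 levels were 29.7 CPM (WT) and 44.0 CPM (KO) and its day 35 levels 8.48 and 8.82 CPM, from 2169, 3713, 262 and 338 UMIs. Its log2 ratio of day 35 over day 25 was -1.81 (-2.00 to -1.62) in WT and -2.32 (-2.48 to -2.16) in KO. All 3 members were therefore at least 2-fold lower at day 35 in both lines, where 13.1% of the genes counted in WT and 7.28% in KO were 2-fold lower and 6.96% and 11.3% were 2-fold higher. The median log2 ratio of all genes was -0.14 in WT and 0.14 in KO, so the ratios change little when set against it. Of the genes counted in KO, 0.836% had a lower ratio than Dlk1, 1.46% a lower ratio than Meg3 and 1.63% a lower ratio than Mirg. In WT these shares were 4.09%, 4.42% and 5.64%.

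**Figure D1:**
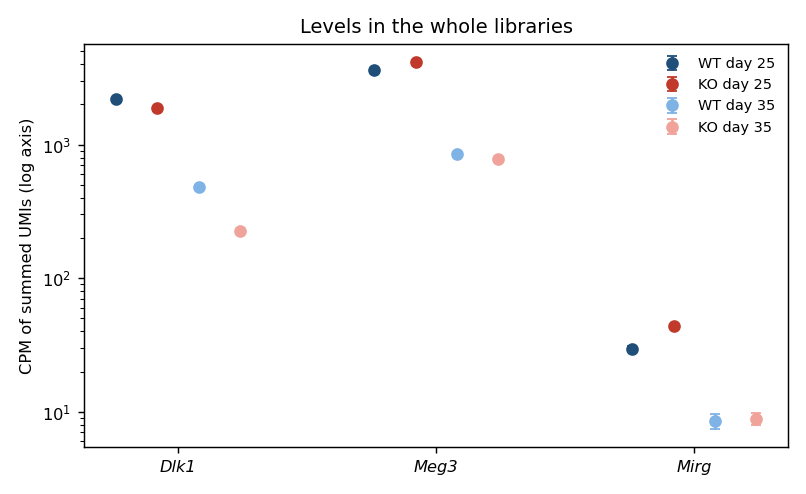
CPM of summed UMIs of Dlk1, Meg3 and Mirg in the 4 libraries on a log axis, with exact 95% Poisson intervals that are mostly smaller than the points. For each gene both day 25 points lie above both day 35 points, and Dlk1 in KO at day 35, at 226 CPM, lies below WT at 482 CPM.

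The other counted genes of the domain were near the floor of detection, except B830012L14Rik. B830012L14Rik, which lies between Meg3 and Mirg, was at 14.4 CPM (WT) and 15.4 CPM (KO) on day 25 and at 7.16 and 4.26 CPM on day 35. Its log2 ratio of day 35 over day 25 was -1.01 (-1.22 to -0.80) in WT and -1.85 (-2.10 to -1.62) in KO, the same direction as the members. Rtl1, a retrotransposon-derived gene of the paternal copy, gave 80 and 128 UMIs at day 25 and 10 and 5 at day 35. Dio3, the deiodinase at the far end, gave 52, 32, 5 and 5 UMIs. Of the 10 flanking genes listed outside the imprinted domain, 1 was 2-fold lower in WT and 1 in KO (Begain each time). In turn 1 in WT and 2 in KO were 2-fold higher. Over all genes 13.1% and 7.28% were 2-fold lower and 6.96% and 11.3% 2-fold higher. The medians of the flanking genes were -0.25 in WT and 0.27 in KO.

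Fewer single cells held a UMI of each member at day 35. A Dlk1 UMI was found in 88.2% and 83.8% of WT and KO cells at day 25 and in 39.7% and 28.5% at day 35. For Meg3 the shares were 95% and 96.9% on day 25, then 58.6% and 67.9% on day 35, and for Mirg 16.7%, 22.1%, 2.84% and 4.37%. Because depth differed, each cell was also thinned to 2000 UMIs, which left out 707 WT cells of day 35 and none elsewhere. Dlk1 was then found in 71.7%, 62.2%, 32.5% and 19.6% of cells, Meg3 in 85.8%, 89.1%, 49.2% and 52.3%, and Mirg in 5.34%, 7.19%, 1.57% and 1.47%. For Dlk1 and Meg3 the days kept their order at equal depth. The Meg3 shares of the 2 lines at day 35 go against their CPM, so no order of the lines is read from them. Thinned Mirg averaged 0.0580, 0.0802, 0.0162 and 0.0155 UMIs per cell, and nothing is read from it beyond its CPM. Droplets also take up free RNA, which can give a UMI to cells that do not make the gene. Among cells with otic epithelial markers at the same 2000 UMIs, Dlk1 was found in 13.8%, 20%, 6.59% and 4.07%. Their median depths before thinning were 8386, 6951.5, 4408.5 and 5796.5 UMIs. The part of free RNA in these shares was not tested.

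The makeup of the libraries also differed, and cells were therefore sorted by marker gates: a barcode entered a gate when it held at least 3 distinct markers of that cell type and more than of any other of 18 lists. A gate is a range of a marker count and not a cell type. In the myotube gate 30.7% of cells, in the fibroblast gate 40.2%, in the myogenic progenitor gate 26.0% and in the otic epithelium gate 39.7% stood exactly at 3 markers. Between 21.9% and 44.1% of a library entered no gate. The leading genes of the cartilage gate, beside Col9a1 and Col2a1, included Oc90 and Otor, markers of the otic epithelium and inner ear mesenchyme lists. The hair cell gate, with Pou4f3, Cabp2 and Ccer2 among its leading genes, held 19, 11, 51 and 35 cells in the order of the libraries above, so the members could be described only coarsely in hair cells.

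Dlk1 was highest in connective tissue and muscle precursors. At day 25 the fibroblast gate (1761 WT and 2889 KO cells) held 4357 CPM in WT and 3536 CPM in KO. The myogenic progenitor gate (858 and 1327 cells; Pax7, Myf5 and Fgfr4 among its leading genes, beside the cycling genes Cdk1 and Ube2c) held 2370 and 1376 CPM, and the myotube gate (2145 and 2028 cells) 1949 and 1286 CPM. Their order was the same in both lines, and the intervals of these 3 gates did not overlap in either. Adipocyte-gated cells followed with 1380 CPM in WT and 639 CPM in KO. Neurons, astrocytes, cartilage, keratinocytes and Schwann or satellite glia lay between 209 and 638 CPM, and in KO the intervals of adipocyte-gated cells, neurons and these glia overlapped.

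Otic epithelium was the gate with at least 50 cells that had the least Dlk1 in WT at day 25, 143 CPM, and it had 399 CPM in KO. Those values were 6.47% and 21.2% of their library's level. To gauge free RNA, genes of other tissues were read in the same gate, where the muscle genes Acta1, Mylpf and Tnnc2, the collagen gene Col1a2 and the keratin gene Krt14 stood at 7.91% to 11.5% of the library level in WT and at 3.43% to 17.1% in KO. Dlk1 in otic epithelium thus lay below the range of these 5 genes in WT and above it in KO. The KO value came from 236 UMIs in 60 cells. The part of free RNA in either value was not tested. Meg3 in the same cells stood at 36.3% and 38.8% of the library level, above all 5 of those genes. In keratinocytes Dlk1 stood at 20.6% in WT, against 10.3% to 17.9% for the muscle genes and Col1a2.

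Meg3 was high in muscle and fibroblasts as well, and unlike Dlk1 it was high in neurons. At day 25 it was at 4777 and 5540 CPM in WT and KO myotubes, 4633 and 4808 CPM in fibroblasts, 3618 and 5233 CPM in neurons (615 and 332 cells) and 3347 and 3909 CPM in myogenic progenitors. Astrocytes held 1647 and 2945 CPM, and otic epithelium 1311 and 1598 CPM. The lowest gate of at least 50 cells was the keratinocyte gate in both lines, with 650 and 364 CPM. Neuronal Dlk1 was 638 and 623 CPM in the same cells, or 28.9% and 33.1% of its library level, where neuronal Meg3 stood at 100.2% and 127%.

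Mirg had its highest value in myotubes among gates of at least 50 cells, with 44.6 CPM (WT) and 74.8 CPM (KO) on day 25, followed by fibroblasts with 39.6 and 51.0 CPM. Neurons held 25.9 and 40.6 CPM and myogenic progenitors 22.5 and 36.1 CPM. The intervals of myotubes and fibroblasts overlapped in WT (41.6 to 47.7 and 36.1 to 43.4) and not in KO, and those of neurons and myogenic progenitors overlapped in both lines. Mirg was at 5.48 and 6.76 CPM in keratinocytes, from 26 and 16 UMIs.

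**Figure D2:**
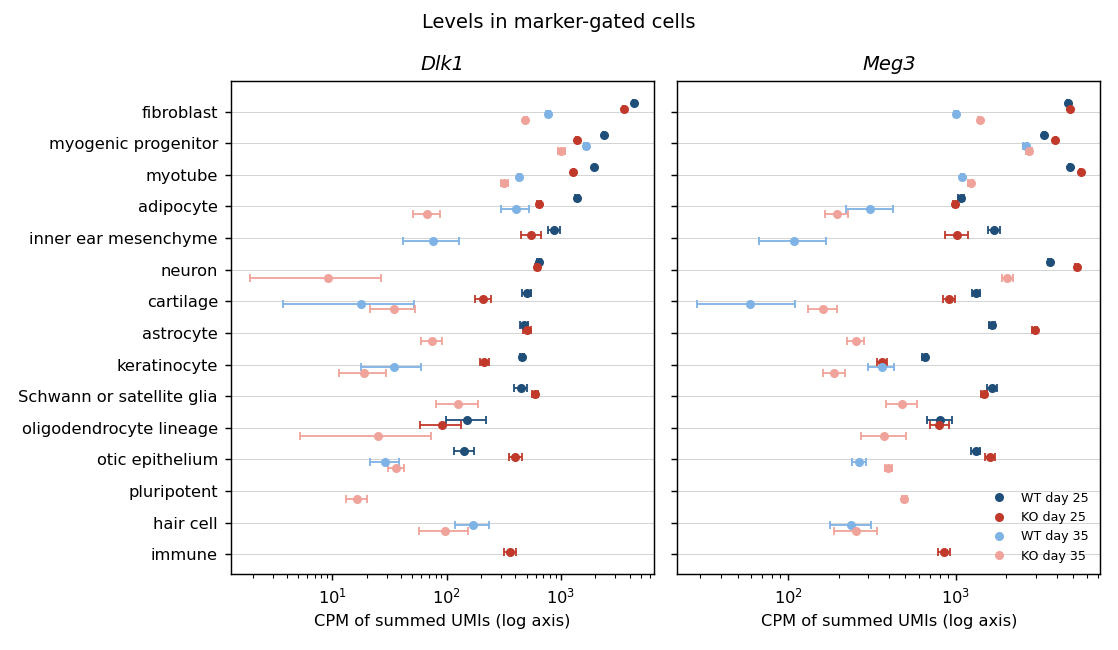
CPM of Dlk1 and Meg3 on a log axis in each marker gate with at least 20 cells, by library, with exact 95% Poisson intervals. Fibroblasts lead for Dlk1, at 4357 CPM in WT at day 25, while neurons reach 3618 and 5233 CPM for Meg3 but 638 and 623 CPM for Dlk1.

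The proportion of the 2 RNAs therefore depended on the cell. How well each RNA is captured is not known, so the ratio of their UMIs is compared between cells and not read as a difference in level between the genes. Meg3 per Dlk1 UMI at day 25 was 1.06 in WT fibroblasts, 1.41 in myogenic progenitors, 2.45 in myotubes, 5.67 in neurons, 9.19 in otic epithelium and 0.775 in adipocyte-gated cells. In KO the same gates gave 1.36, 2.84, 4.31, 8.39, 4.01 and 1.56. The part of free RNA in these ratios was not tested. The ratio was higher in KO in 5 of these 6 gates, and lower in otic epithelium, where WT Dlk1 rested on 99 UMIs. Among the gates not listed, it was also lower in KO in Schwann or satellite glia. These gave 3.69 (3.20 to 4.27) in WT and 2.48 (2.31 to 2.68) in KO. Inner ear mesenchyme gave 1.92 and 1.83, with overlapping intervals. Cartilage, keratinocytes, astrocytes and oligodendrocyte lineage cells had a higher ratio in KO.

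Over whole libraries Meg3 per Dlk1 UMI was 1.64 (1.63 to 1.65) in WT and 2.19 (2.17 to 2.20) in KO for day 25, and 1.77 (1.73 to 1.80) and 3.44 (3.36 to 3.52) at day 35. Meg3 per Mirg varied less, at 122, 93.7, 100.3 and 88.1 UMIs in the same order. On both days Meg3 per Dlk1, a maternally over a paternally expressed gene, was higher in KO. Meg3 per Mirg, both maternally expressed, was lower in KO at day 25 (117 to 127 in WT, 90.7 to 96.8 in KO), while its intervals overlapped at day 35 (88.8 to 114 and 79.1 to 98.3).

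The lower levels at day 35 were seen within the gates. In WT, Dlk1 was lower at day 35 in 8 of 8 gates with at least 20 cells on both days and 20 UMIs, and 2-fold lower in 7. Meg3 was lower in 8 of 8 and 2-fold lower in 6. Over all pairs of gene and gate in WT, 51.1% had a ratio below 0 and 48.9% above it, and 10.9% were 2-fold lower and 9.67% 2-fold higher. In KO, Dlk1 was lower in 11 of 11 gates and 2-fold lower in 10, and Meg3 lower in 11 of 11 and 2-fold lower in 9, where 47.2% of all pairs were below 0 and 52.8% above it, and 8.98% were 2-fold lower and 7.98% 2-fold higher. Mirg was lower in 4 of 4 gates in WT, with 2 of the intervals below 0, and in 8 of 8 in KO, with 7 below 0. These gates include otic epithelium and keratinocytes, where Dlk1 at day 35 stood at 5.99% to 16% of its library's level and the genes of other tissues at 5.94% to 13.2%. Cartilage was also low at day 35, with 17.9 CPM of Dlk1 in WT and 34.6 CPM in KO, the latter 15.3% of its library's level. Genes of other tissues stood at 6.79% to 13.2% in KO cartilage. KO neurons and oligodendrocyte lineage cells held 9.15 and 25.0 CPM, where the whole KO library held 226 CPM. How much of this was free RNA was not tested.

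In fibroblasts and myotubes, the gates with the most cells, both genes were 2-fold lower or more at day 35 in each line. Fibroblast Dlk1 on day 35 was at 768 CPM (WT) and 489 CPM (KO), a log2 ratio over day 25 of -2.50 (-2.56 to -2.45) and -2.86 (-2.91 to -2.80). Fibroblast Meg3 was at 999 and 1388 CPM, with ratios of -2.21 (-2.26 to -2.17) and -1.79 (-1.82 to -1.76). Myotube Dlk1 was at 432 and 319 CPM and myotube Meg3 at 1094 and 1222 CPM, all between -2.18 and -2.01 in log2 ratio. In KO, both genes in both gates differed between days by less than in the whole library (-3.06 for Dlk1 and -2.41 for Meg3). In WT, fibroblasts differed by more than the whole library for both genes, and myotubes by about as much. In KO neurons Meg3 remained at 2023 CPM at day 35 (33 cells), a log2 ratio of -1.37 (-1.49 to -1.26). Dlk1 gave 3 UMIs there, a log2 ratio of -6.09 with a counting interval of -8.37 to -4.54. The part of free RNA in those UMIs was not tested.

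Myogenic progenitors, gated by markers that include Pax7 and Myf5, were the gate with the smallest difference between days for both genes in both lines. Their Dlk1 was at 1654 CPM in 334 WT cells and 1007 CPM in 173 KO cells at day 35, a log2 ratio of -0.52 (-0.59 to -0.45) and -0.45 (-0.55 to -0.35). Their Meg3 was at 2597 and 2726 CPM, a log2 ratio of -0.37 (-0.42 to -0.31) and -0.52 (-0.58 to -0.46). At day 35 these cells held the highest Dlk1 and the highest Meg3 of any gate with at least 50 cells in either line. Their share of the library was 8.78% and 11.9% at day 25 and 4.09% and 2.57% at day 35.

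**Figure D3:**
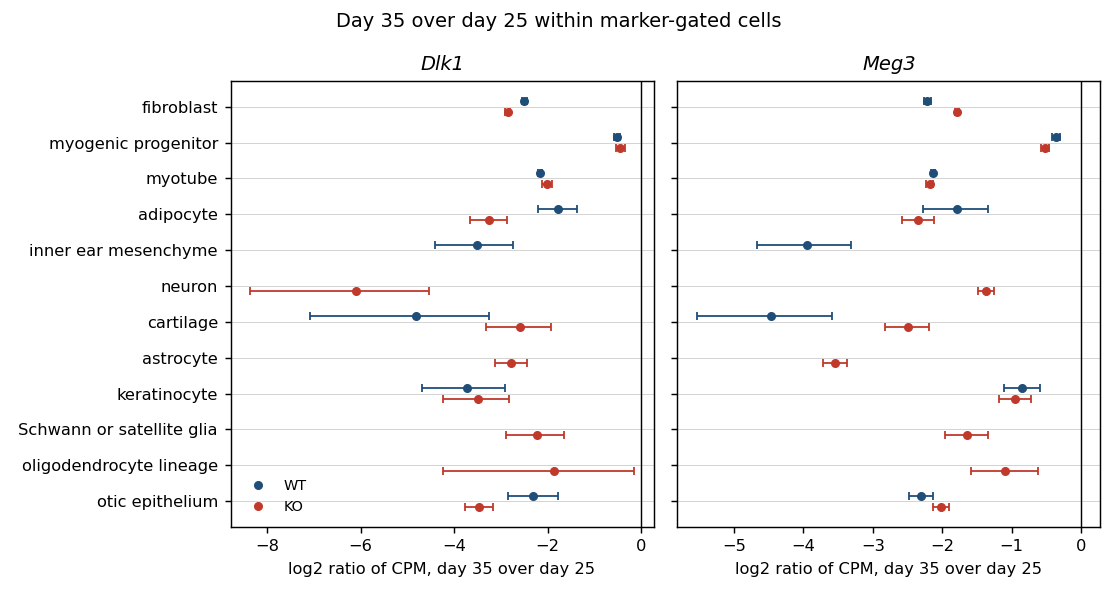
Log2 ratio of CPM of day 35 over day 25 for Dlk1 and Meg3 in each gate, WT and KO, with exact 95% intervals for counting error. All points lie left of 0, and myogenic progenitors lie nearest to 0, at -0.52 and -0.45 for Dlk1 and -0.37 and -0.52 for Meg3.

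Between the lines, Dlk1 was lower in KO on both days, by a larger ratio at day 35, and the difference between the days was not tested. Set against WT, the whole-library log2 ratio in KO stood at -0.23 (-0.24 to -0.22) on day 25 and at -1.09 (-1.13 to -1.05) on day 35. Of the members, none was 2-fold different at day 25, where 1.89% of genes were 2-fold higher and 3.68% 2-fold lower in KO. At day 35 Dlk1 alone was 2-fold lower, where 7.82% of genes were 2-fold higher and 2.41% 2-fold lower. The median of all genes at day 35 was 0.23, and relative to it Dlk1 was at -1.32. With the 5 gates of at least 50 cells in all libraries weighted equally, the ratio was -0.45 at day 25 and -0.64 at day 35. Myotube-gated cells made up 27.0% of the WT library and 6.06% of the KO library on day 35.

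Meg3 differed less, and its direction at day 35 was not stable. Its KO to WT log2 ratio stood at 0.19 (0.18 to 0.20) on day 25 and at -0.13 (-0.15 to -0.11) on day 35. The day 35 ratio became 0.17 when only barcodes with 1000 or more genes and no more than 5% mitochondrially encoded UMIs entered, and 0.16 with gates weighted equally. Mirg was at 0.57 (0.49 to 0.64) at day 25, where 95.4% of genes had a lower ratio. At day 35 its ratio of 0.06 had an interval of -0.18 to 0.30, so no difference was detectable at that depth.

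Within the gates, Dlk1 was lower in KO in 9 of 12 gates at day 25 and 6 of 8 at day 35, where 48.7% and 41.8% of all pairs of gene and gate were below 0. It was 2-fold lower in 3 and in 1 of them, against 3.1% and 4.48% of pairs. The 3 gates of day 25 were cartilage, keratinocytes and adipocyte-gated cells. KO Dlk1 stood at 11.1% of the library level in cartilage and at 11.3% in keratinocytes. Genes of other tissues stood there at 5.85% to 18.0% and at 7.24% to 9.39%. The gates with the most cells had log2 ratios of -0.30 (fibroblast, -0.32 to -0.29), -0.78 (myogenic progenitor, -0.82 to -0.75) and -0.60 (myotube, -0.62 to -0.58) at day 25. At day 35 they had -0.65 (-0.72 to -0.58), -0.72 (-0.83 to -0.60) and -0.44 (-0.55 to -0.33). The myogenic gates and fibroblasts thus had less Dlk1 in the KO library on both days. Higher values in KO at day 25 were those of otic epithelium (1.48), glia of the Schwann or satellite gate (0.42) and astrocytes (0.09, interval -0.08 to 0.25).

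Meg3 was higher in KO in 6 of 12 gates at day 25 and 6 of 8 at day 35, where 51.3% and 58.2% of all pairs were above 0. It was 2-fold higher in 0 and in 1 of them, against 3.18% and 6.05% of pairs, and 2-fold lower in 0. At day 25 it was higher in astrocytes (0.84, 0.76 to 0.91) and neurons (0.53, 0.50 to 0.57), slightly higher in myogenic progenitors (0.22) and myotubes (0.21), and lower in keratinocytes (-0.84, -0.95 to -0.73). Fibroblasts went from 0.05 (0.04 to 0.07) at day 25 to 0.48 (0.42 to 0.53) at day 35. With at least 5 markers required, a limit chosen after seeing the data, the Meg3 ratio of myotubes at day 35 changed from 0.16 to -0.13 and that of adipocyte-gated cells at day 25 from -0.11 to 0.15. Mirg was higher in KO in 7 of 8 gates at day 25 and 3 of 3 at day 35, with myotubes at 0.75 (0.62 to 0.87) and myogenic progenitors at 0.68 (0.40 to 0.97) at day 25. None of the 3 intervals at day 35 left out 0.

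**Figure D4:**
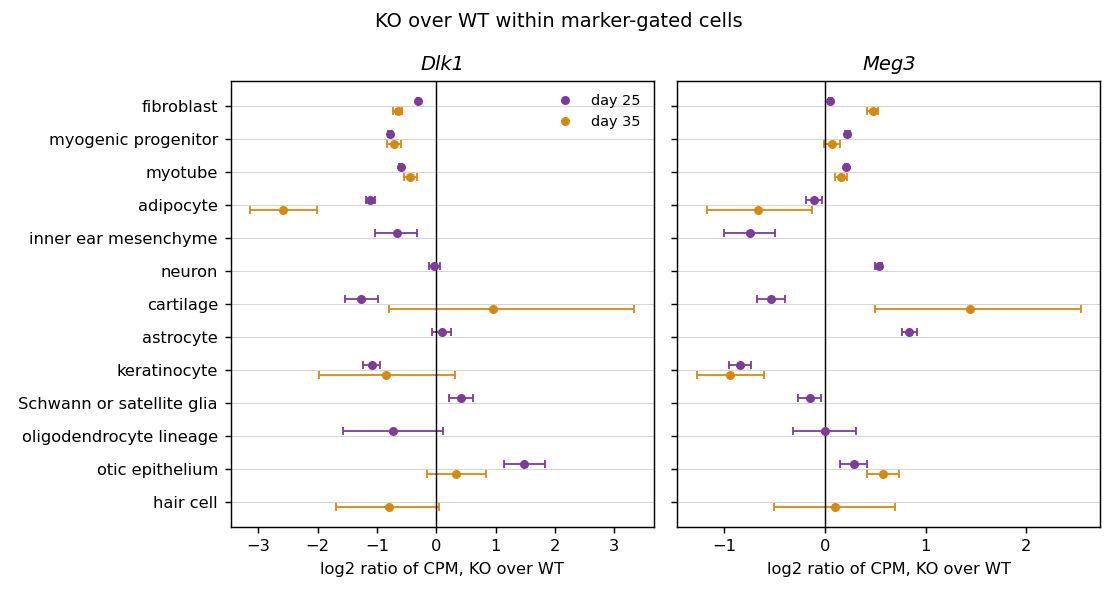
Log2 ratio of CPM of KO over WT for Dlk1 and Meg3 in each gate at day 25 and day 35, with exact 95% intervals for counting error. Dlk1 lies left of 0 in 9 of 12 gates at day 25 and 6 of 8 at day 35, and Meg3 lies to both sides.

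The lower Dlk1 of KO cells went with more cells lacking it. In myogenic progenitors of day 25, thinned to 2000 UMIs, 5.83% (4.36% to 7.61%) of WT cells and 30.9% (28.4% to 33.5%) of KO cells had no Dlk1 UMI. Counting noise around an equal level in every cell would leave 0.623% and 6.15% of cells without one, so Dlk1 was uneven among cells in both lines. At day 35 the shares were 18.6% in WT and 45.1% in KO. The median WT progenitor held 4 Dlk1 UMIs and the median KO progenitor 1 at day 25, and 3 and 1 at day 35.

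Fibroblasts showed the same shift at the low end. Cells without a Dlk1 UMI made up 13.5% of WT and 26.0% of KO fibroblasts at day 25, and cells with 20 or more UMIs 13.3% and 11.3%. At day 35, 59.5% of WT and 70.3% of KO fibroblasts had none. Meg3 was missing from 4.43% and 3.88% of the same fibroblasts at day 25 and from 35.0% and 25.5% at day 35. The cells of 1 library are not replicates, and these shares describe the 4 libraries only.

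**Figure D5:**
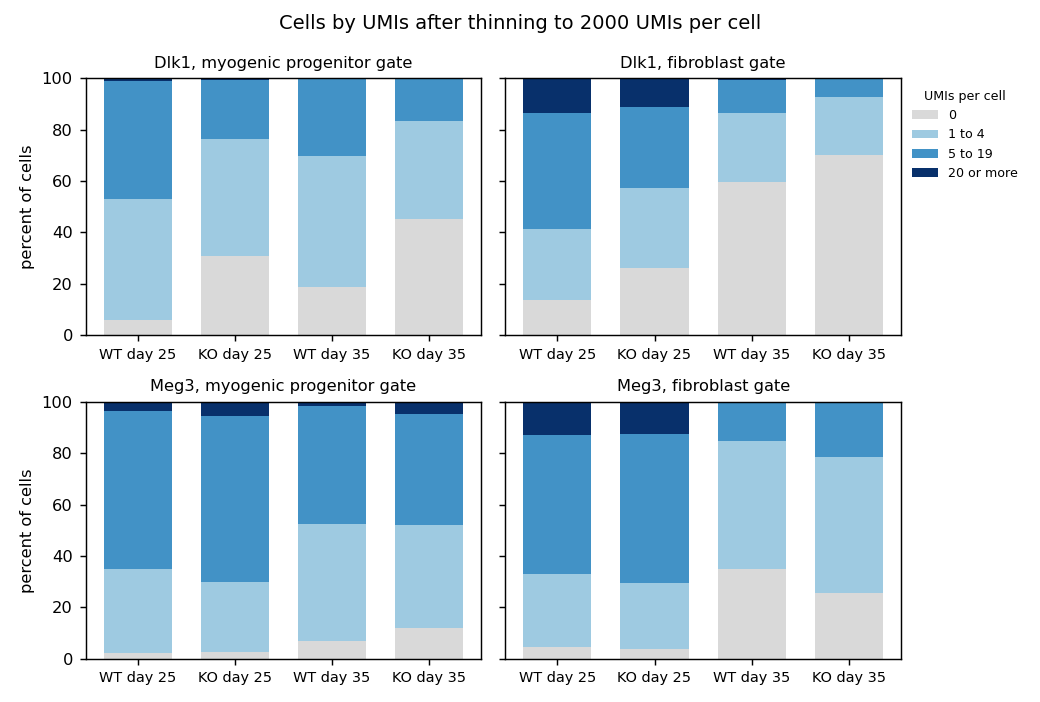
Percent of cells with 0, 1 to 4, 5 to 19 and 20 or more UMIs of Dlk1 (top) and Meg3 (bottom) after thinning to 2000 UMIs per cell, in the myogenic progenitor and fibroblast gates of each library. Cells without Dlk1 make up 5.83% of WT and 30.9% of KO progenitors at day 25, while Meg3 is missing from 2.45% and 2.71%.

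Cell by cell, Dlk1 and Meg3 went together in WT fibroblasts and myogenic progenitors, with lower correlations in KO. Over WT fibroblasts of day 25 (1761 cells at 2000 UMIs) the Pearson correlation of their UMIs was 0.51, and cells with Dlk1 averaged 11.0 Meg3 UMIs against 3.51 in cells without it. Over KO fibroblasts it was 0.15, with 10.9 against 8.04, and at day 35 it was 0.53 in WT and 0.29 in KO. In myogenic progenitors it was 0.26 (WT) and -0.19 (KO) on day 25. KO progenitors without Dlk1 (410 cells) averaged 10.0 Meg3 UMIs, and those with Dlk1 7.51, the opposite order to WT, where the 50 cells without Dlk1 averaged 5.54 and the others 7.37. At day 35 the correlation in progenitors was 0.43 in WT and 0.21 in KO, with more Meg3 in the cells that had Dlk1 in both lines. The cells of a correlation share a library and their depth was set equal, and it is a description only.

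Dlk1 is known to decline as fat cells mature, and within adipocyte-gated cells it was lower the more markers were required. In WT at day 25 Dlk1 was at 1591 CPM in cells with at least 2 adipocyte markers, 1380 CPM with at least 3, 951 CPM with at least 4 and 734 CPM with at least 5. In KO the values were 819, 639, 491 and 391 CPM. Each step lowered Dlk1 in both lines, and the cells of each step are also in the one before. Meg3 went the same way, from 1428 to 589 CPM in WT and from 1408 to 651 CPM in KO. Such a course was not limited to fat: Dlk1 on day 25 also went from 501 to 445 CPM (WT) and from 244 to 156 CPM (KO) in keratinocytes, and from 1953 to 1766 CPM and from 1324 to 1038 CPM in myotubes. In the fibroblast gate it went up with the number of markers required, from 4306 to 4702 CPM in WT and from 3439 to 3937 CPM in KO. Between the lines, adipocyte-gated cells had a Dlk1 log2 ratio of KO over WT of -1.11 (-1.19 to -1.03) at day 25, and of -2.58 (-3.15 to -2.01) at day 35 with 23 WT and 119 KO cells. The day 35 ratio was -1.58 (-2.02 to -1.12) with at least 2 markers required. KO Dlk1 on that day went from 135 CPM with at least 2 markers to 67.3, 11.0 and 6.85 CPM with at least 3, 4 and 5, so most of it lay in the cells at the limit.

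Pluripotent-gated cells were almost all from KO at day 35 (320 cells, against 11, 2 and 0 in the other libraries in order). Their Dlk1 was at 16.3 CPM, or 7.22% of the library level, within the 2.37% to 18.9% of the muscle, collagen and keratin genes in the same cells. Meg3 was at 493 CPM, found in 48.8% of the cells at 2000 UMIs, and Mirg at 15.7 CPM, 178% of its library level. Meg3 per Dlk1 was 30.2 (24.4 to 38.0), the highest of any gate with at least 50 cells. The KO library of day 35 therefore held cells with stem cell markers, Meg3 and Mirg. Their Dlk1 lay within the range of genes of other tissues, and the part of free RNA in it was not tested.

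Cycling cells, those with at least 3 of 8 cell cycle markers, held less Meg3 than other cells of the same gate at day 25. The log2 ratio of cycling over other cells was -1.47 (-1.60 to -1.34) in WT neurons, -0.71 (-0.76 to -0.65) in WT fibroblasts, -0.47 (-0.50 to -0.43) in WT myotubes and -0.29 (-0.33 to -0.25) in WT myogenic progenitors. In KO it was -0.50 in fibroblasts, -0.75 in myotubes and -0.32 in myogenic progenitors. It was below 0 in all 6 gates compared in each line at day 25. At day 35 it was -0.52 and -0.23 in WT and KO myogenic progenitors, 0.18 in WT myotubes and 0.71 in KO keratinocytes. At day 25 Dlk1 differed less in WT, by -0.26 in fibroblasts, 0.09 in myotubes and -0.08 in myogenic progenitors. The other WT gates gave -0.99 (keratinocytes, where Meg3 was at -1.25), -0.33 (adipocyte-gated cells) and 0.08 (neurons) for Dlk1. Cycling cells were the deeper ones, with medians of 9237 and 5899 UMIs in WT at day 25, and the part of depth in the difference was not tested. Of the 8 cell cycle markers themselves, all 8 in WT and 1 in KO (Mki67) were 2-fold lower at day 35. Over all genes 13.1% in WT and 7.28% in KO were 2-fold lower.

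Dlk1 at day 25 was lower in cells with a larger share of mitochondrially encoded UMIs, with cells of all gates binned together. In WT Dlk1 was at 2979 CPM in cells with at most 2% of such UMIs and at 2218 CPM above 2% to 4%. It was at 1227 CPM above 4% to 6% and at 886 CPM above 6% to 10%. In KO these bins gave 2477, 1691, 833 and 503 CPM. At day 35 the same bins gave 312, 259, 185 and 93.1 CPM in KO, and 472, 532, 534 and 426 CPM in WT with no such order. At day 25 Meg3 varied less, between 3215 and 4331 CPM in WT and between 3772 and 4515 CPM in KO. Kept WT cells had 2.98% mitochondrially encoded UMIs at day 25 and 4.81% at day 35, and KO cells 2.52% and 3.72%. With at least 1000 genes and at most 5% required, Dlk1 at day 35 over day 25 was at -2.35 in WT and -2.87 in KO. Malat1, another RNA kept in the nucleus, was higher at day 35, by 0.98 in WT and 0.79 in KO. Of 5 such RNAs, 4 in WT and 3 in KO were lower at day 35, with medians of -0.08 and -0.09. Those 2-fold lower were 1 of 5 in WT (Snhg11) and 0 in KO, against 13.1% and 7.28% of all genes.

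Other imprinted genes were compared as lists. Of paternally expressed imprinted genes outside the domain, 13 of 24 in WT and 13 of 23 in KO were 2-fold lower at day 35, with medians of -1.06 and -1.27 against -0.14 and 0.14 over all genes. Among them were the growth factor gene Igf2 (851 to 348 CPM in WT, 167 to 34.7 CPM in KO), Mest, Plagl1, Ndn and Nnat. Of the same list 0 were 2-fold higher in WT and 1, Snrpn, in KO. Over all genes 13.1% in WT and 7.28% in KO were 2-fold lower, and 6.96% and 11.3% were 2-fold higher. Of other maternally expressed genes, 5 of 17 in WT and 4 of 17 in KO were 2-fold lower and 4 and 3 were 2-fold higher. Dlk1 and Meg3, from opposite parental copies, were both among the lower genes.

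A few imprinted genes differed between the lines by far more than Dlk1 or Meg3 at day 25. At day 25 the maternally expressed H19 was at 938 CPM in WT and 3991 CPM in KO, and its paternally expressed neighbour Igf2 at 851 and 167 CPM, log2 ratios of 2.09 and -2.35. At day 35 they were at 1.94 and -3.32. Cdkn1c, a maternally expressed inhibitor of the cell cycle, was at 578 and 42.2 CPM at day 25, and Grb10, an adaptor of growth factor receptors, at 37.7 and 1.40 CPM. Mest and Peg3, paternally expressed, were higher in KO at day 25, by 1.02 and 0.92. Over the lists, 1 of 24 paternally expressed genes was 2-fold lower (Igf2) and 1 higher (Mest) at day 25, and 6 of 17 other maternally expressed genes were lower and 1 higher (H19), against 3.68% lower and 1.89% higher over all genes. At day 35 the paternally expressed list had 1 of 22 lower and 4 higher and the maternally expressed list 5 of 16 lower and 2 higher, against 2.41% lower and 7.82% higher.

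The genes around Dlk1 in its known pathways did not share 1 direction. Of the Notch receptors, ligands and targets, 5 of 18 in WT and 3 of 18 in KO were 2-fold lower at day 35 (Hes5 and Lfng in both) and 1 in each, the target Hes1, was 2-fold higher (229 to 658 CPM in WT, 271 to 559 CPM in KO). Over all genes 13.1% in WT and 7.28% in KO were 2-fold lower and 6.96% and 11.3% higher. Of the adipogenic genes, 6 of 9 in WT and 5 of 9 in KO were 2-fold lower, with Adipoq, the adiponectin gene, at 27.7 and 3.14 CPM in WT and 46.5 and 17.8 CPM in KO on the 2 days. Between the lines none of the adipogenic genes was 2-fold different at day 25, and Pparg, Adipoq and Plin1 were 2-fold higher in KO at day 35, against 7.82% of all genes. The adipocyte gate held 0.282% of WT and 1.77% of KO cells on that day.

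Of 15 genes that write, keep or erase imprints, 4 were 2-fold lower at day 35 in WT (Uhrf1, Zfp57, Trim28 and Dppa3), against 13.1% of all genes, with a median of -0.62 against -0.14. In KO 3 of 15 were 2-fold higher (Dnmt3b, Dnmt3l and Dppa3), against 11.3% of all genes, and pluripotent-gated cells made up 4.76% of that library. Of the Polycomb repressive complex 2, which Meg3 RNA has been reported to bind, 1 of 9 was 2-fold lower in WT (Ezh2) and 1 of 9 2-fold higher in KO (Mtf2), shares near those over all genes (13.1% and 11.3%). Of the genes for Dlk1 shedding and reported partners, 1 of 4 was 2-fold lower in WT (Acvr2b) and 0 in KO. The shares of all genes 2-fold lower were 13.1% in WT and 7.28% in KO.

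Across 37 sums of cells by gate and library with at least 50 cells, Meg3 and Mirg followed each other with a Pearson correlation of 0.92 of log2(CPM + 10), and Dlk1 and Meg3 with 0.86. With the members themselves left out, the 5 genes most like Dlk1 were Nrk (0.83), Ccnd3 (0.82), Plagl1 (0.82), Itm2a (0.80) and Peg3 (0.80). For Meg3 they were Peg3 (0.85), B830012L14Rik (0.81), Mest (0.80), Klhl22 (0.79) and Nol12 (0.79), and for Mirg B830012L14Rik (0.88), Peg3 (0.85), Vash2 (0.81), AW551984 (0.75) and Mest (0.75). Each correlation is over the same 37 sums, which share 4 libraries and therefore the days. With each library's mean removed and the members again left out, Itm2a led for Dlk1 (0.94), Peg3 for Meg3 (0.90, as high as Meg3 with Mirg) and B830012L14Rik for Mirg (0.95).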

How the data were processed

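Organoid cells were captured by droplet (10x Genomics) and sequenced by the submitters. Cell Ranger 2.1.0, Seurat 2.3.1 and R 3.5.1 are named, per the submitters' processing notes, with the builds mm10 and GRCm38. The deposited values are raw counts of UMIs per gene and barcode, 1 matrix for each of the 4 libraries. All else was computed from them with Python 3.11.15, numpy 2.4.6, scipy 1.17.1, pandas 2.3.3 and matplotlib 3.10.9: filtering of barcodes, marker gates (18 lists of 8 to 10 markers, Cnmd matched by its older symbol Lect1), CPM of summed counts, exact Poisson, binomial and Clopper-Pearson intervals, and thinning to 2000 UMIs (seed 1). The interval code was tested on simulated data. Ratios need at least 50 UMIs over both libraries, or 20 UMIs and 20 cells in each library within a gate. Free RNA was not removed and no doublet caller was run; leaving out the 5% of barcodes with the most UMIs was an alternative. The comparisons between lines and between days share libraries, so their values stand side by side.

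The members and gene lists were chosen with earlier results of these data known. Beside the members, list genes were named as examples past 2-fold, and the 5 genes most like each member were taken by Pearson correlation of log2(CPM + 10) among 13414 genes. Other alternatives were no barcode filter, stricter filters, other totals, gates of 2, 4 or 5 markers and barcodes shared between libraries left out. Gene positions are GENCODE M21 and sequences RefSeq GRCm38.p6. Rian is not analysed here.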

Additional observations from a re-analysis of the deposited data

Results flagged for a closer look

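Meg3 over whole libraries had a log2 ratio of KO over WT of 0.19 at day 25 and -0.13 at day 35, opposite directions in the single library pair of each day. In the cartilage gate the Meg3 ratio was -0.54 at day 25 and 1.44 at day 35, the latter from 10 Meg3 UMIs in 35 WT cells and 98 in 105 KO cells. Neither difference between days was tested, since each group is 1 library, and the direction of the whole-library ratio at day 35 changed with the barcode filter.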

How the results depend on the processing

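Whole-library log2 ratios are given for no barcode filter, at least 1000 genes with at most 5% mitochondrial UMIs, the top 5% of barcodes left out, mitochondrial and ribosomal genes left out of the total, the median of all genes set to 0, the mean of each cell's CPM, and 5 gates weighted equally, in that order where they moved beyond the counting interval. Dlk1, KO over WT, was -0.21, -0.26, (top 5%: within the interval), -0.21, -0.19, -0.29 and -0.45 at day 25 and -1.04, -0.78, -0.96, (other total: within), -1.32, -0.99 and -0.64 at day 35. Meg3, KO over WT, was 0.20, 0.18, 0.20, 0.20, 0.22, 0.16 and 0.14 at day 25. At day 35 Meg3 reversed to 0.17 with the stricter filter and to 0.16 with gates weighted equally, and was -0.036 without the top 5%, -0.16 with the other total, -0.36 with the median at 0 and -0.031 as a mean over cells. Day 35 over day 25 in WT was -2.24, -2.35, (top 5%: within), -2.29, -2.06, (mean over cells: within) and -1.67 for Dlk1, and -2.05, -2.28, -2.14, -2.18, -1.95, -2.17 and -1.47 for Meg3. In KO, from the stricter filter on, it was -2.87, -2.94, -3.20, -3.20, -2.88 and -1.86 for Dlk1 and -2.29, -2.38, -2.54, -2.54, -2.36 and -1.45 for Meg3. Apart from Meg3 at day 35, each of these ratios kept its direction.

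Genes 2-fold different numbered 868 at day 25 between lines, 1312 with at least 20 UMIs and 439 with at least 200 UMIs required. They numbered 1461 at day 35 (792 with 200 UMIs) and 2839 between days in KO (1829 with 200 UMIs). Fewer genes enter at 200 UMIs. Gates with Dlk1 higher in KO at day 35 were 2 of 8, but 5 of 11 with at least 2 markers, 1 of 6 with at least 4 and 1 of 5 with at least 5. Gates with Meg3 higher were 6 of 8, and 3 of 6 with at least 5 markers, a setting chosen after seeing the data. Under it Meg3, KO over WT, also reversed in Schwann or satellite glia (0.63) and adipocyte-gated cells (0.15) at day 25 and in myotubes (-0.13) at day 35. In hair cells at day 35, where each interval included 0, Meg3 went from 0.10 to -0.0087, -0.089 and -0.46 with 2, 4 and 5 markers. Where no construction is named, the cause was not tested. Leaving out barcodes shared between libraries moved none of these values beyond its interval. Mirg, KO over WT at day 35, ran from -0.17 to 0.58 over the settings. No paired analysis was possible because each group is 1 library and no replicate numbers are shared. Mirg, Rtl1 and Dio3 at day 35 rest on few UMIs, and hair cells on at most 51 cells per library, which limits what could be detected there.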
